A study of Mus musculus with 18 samples.

Results

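The genes described here encode the MHC class II antigen presentation machinery. They were chosen by name for this role, with earlier results of these data known, and there were 7 of them among the 35655 genes of the table. H2-Aa, H2-Ab1 and H2-Eb1 encode chains of the peptide-binding class II molecules. H2-DMa and H2-DMb1 encode the heterodimer that loads peptides onto them. Cd74 encodes the invariant chain, and Ciita encodes the class II transactivator. All 7 had counts and all 7 were among the 10312 genes that passed the filter on low counts and were tested.

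Class II molecules present peptides from engulfed proteins to CD4+ T cells. An alpha and a beta chain pair in the endoplasmic reticulum around the invariant chain, which fills the groove and directs the complex to endosomes. Proteases such as cathepsin S then trim the invariant chain to a short peptide named CLIP, and H2-DM exchanges CLIP for antigenic peptides. The chains, the invariant chain and H2-DM are transcribed together in dendritic cells, B cells and activated macrophages, where the transactivator is recruited to factors bound at their promoters. Interferon-gamma is the known inducer of the transactivator in other cells, including vascular smooth muscle and endothelium.

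Of the 7 genes, 5 lie in the class II region of chromosome 17 (GRCm39), within 197134 bases. In all, 12 protein-coding genes lie in this stretch or overlap its edge. H2-DMa spans 34338515 to 34358958, H2-DMb1 34372046 to 34379204, H2-Ab1 34476663 to 34488393 and H2-Eb1 34504236 to 34535648, all on the plus strand. H2-Aa lies on the minus strand from 34493404 to 34506798. Ciita lies on chromosome 16 from 10297923 to 10347694 on the plus strand. Cd74 is annotated outside the region as well. Annotated exons of H2-Aa and H2-Eb1 overlap on opposite strands, as do those of H2-DMa with Brd2, of H2-DMb1 with Gm64535, of H2-Eb1 with Gm20513 and of Ciita with Dexi. Whether the counting used strand is not given in the sources used here, so reads that fell in an overlap cannot be assigned. The spans shared by H2-Aa and H2-Eb1 (34504236 to 34506798) and by H2-DMa and Brd2 (34338515 to 34341745) lie at the 5′ ends of these genes. Where the overlaps with Gm64535, Gm20513 and Dexi lie within H2-DMb1, H2-Eb1 and Ciita was not determined. Tags were read near 3′ ends, and how many fell in an overlap was not counted. H2-DMb1 and H2-DMb2 are near-identical neighbours whose reads may have been split between them.

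The 120 bases before the start of the canonical transcript are shown for the 5 genes of the class II region because the genes moved together. They come from the reference genome, were not measured here and are given on each gene's own strand. The H2-Aa sequence is chr17:34506798-34506917 (minus), H2-Ab1 chr17:34482063-34482182 (plus) and H2-Eb1 chr17:34524693-34524812 (plus). H2-DMa is chr17:34354440-34354559 (plus) and H2-DMb1 chr17:34371926-34372045 (plus). Capitals mark TGATTGG, the letters of the Y box, an inverted CCAAT element known to be bound by NF-Y in class II promoters.
H2-Aa: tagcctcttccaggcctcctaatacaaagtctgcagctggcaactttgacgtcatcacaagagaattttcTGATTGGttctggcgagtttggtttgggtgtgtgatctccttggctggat
H2-Ab1: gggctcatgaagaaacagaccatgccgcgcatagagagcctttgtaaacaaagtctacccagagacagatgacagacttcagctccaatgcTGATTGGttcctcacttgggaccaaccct
H2-Eb1: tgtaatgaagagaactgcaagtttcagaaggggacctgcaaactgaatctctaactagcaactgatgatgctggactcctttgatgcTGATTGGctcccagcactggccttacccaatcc
H2-DMa: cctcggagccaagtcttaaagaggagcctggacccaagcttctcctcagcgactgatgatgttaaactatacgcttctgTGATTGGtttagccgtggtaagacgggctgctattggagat
H2-DMb1: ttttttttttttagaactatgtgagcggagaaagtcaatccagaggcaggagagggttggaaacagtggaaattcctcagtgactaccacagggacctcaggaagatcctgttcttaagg

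TGATTGG, letters picked after these sequences had been seen, began 50 bases before the start in H2-Aa, 29 in H2-Ab1, 33 in H2-Eb1 and 41 in H2-DMa. It was found on neither strand of the 250 bases before the starts of H2-DMb1 and Ciita, and Cd74 was not searched. Over 21770 promoters of protein-coding genes, 8.32% held it on either strand within 250 bases and 3.67% within 60 bases. The shorter core ATTGG, which lies within TGATTGG, was in 36.5% of them. These matches describe the letters, and no binding was measured.

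To follow the vessel wall through injury and neointima formation, RNA was extracted from laser-dissected sections of the carotid artery of wild-type C57/BL6 mice, with up to 70 sections pooled per sample. There were 4 libraries from day 0, labelled as pre-injury, and 4, 3, 4 and 3 libraries from days 7, 14, 21 and 28 after wire injury. Per the study's methods, the left carotid of male mice aged 11 weeks was injured and the right carotid served as control. Whether the day 0 tissue came from mice that were injured elsewhere is not stated. The sections took in the tissue from the outer elastic lamina to the neointima, so each library is a mixture of wall and infiltrating cells. The labels do not say that libraries of a day came from separate animals, and p-values therefore measure the spread between these samples only.

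Libraries were made by MACE, which reads 1 tag near the 3′ end of each polyadenylated transcript. Totals ranged from 440675 to 878310 counts, with 10674 to 13361 genes detected per library. Levels are given as CPM, the count scaled to the TMM-normalised library size. H2-DMa and Ciita rest on few counts, and lower bounds cover counting error only. Defining markers of the artery were present, as the 8 contractile smooth muscle genes summed to between 39035 and 44950 CPM on day 0. All 8 were called lower on day 7, with sums of 1845 to 8195 CPM, and all 8 were higher on day 28 than on day 7, with sums of 26148 to 33780 CPM. The part of this change in tissue make-up in the class II levels was not tested. Macrophage markers were low before injury and high after it, with sums over 16 genes of 185 to 596 CPM on day 0 and 5433 to 7979 CPM on day 7. The later ranges were 1451 to 3281 CPM (day 14), 2231 to 3891 CPM (day 21) and 1005 to 1352 CPM (day 28).

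One pre-injury library stood apart for the class II genes. In day 0 replicate 1 the 7 genes summed to 676 CPM, against 48.6 to 115 CPM in the other 3 day 0 libraries. The same library held 596 CPM of macrophage markers against 185 to 371 CPM in the others. Its B cell markers (2.98 against 10.4 to 14.4 CPM) and dendritic cell markers (19.4 against 15.5 to 24.9 CPM) were not higher. These sums rest on few counts, as only 2 of 8 B cell and 5 of 12 dendritic cell genes passed the filter. The part of these cells in its class II level was not tested. Results against day 0 are given with this library and, where it matters, without it. As it was singled out by its high class II levels, larger differences from day 0 without it follow from that choice. They are not separate support.

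After injury the class II genes rose together. Between day 0 and day 7 all 7 genes were called higher, by a median of 3.50 on the log2 scale (3.47 with Ciita at its lower bound), while the median over all genes tested was 0.07. Calls rest on an adjusted p (Benjamini-Hochberg over the 10312 genes) below 0.05 in the quasi-likelihood test of edgeR, fitted once to 18 libraries. At that threshold 11.3% of all genes were called higher on day 7. Every day 7 library lay above every day 0 library for all 7 genes, as it did for 13.6% of all genes. In bulk tissue, more cells that express these genes and more RNA per cell cannot be told apart.

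The number of genes called fell with time. On day 14, 6 of 7 were higher than on day 0 (4.8% of all genes), and 5 had no overlap between the days (10.7% of all genes). On day 21, again 6 of 7 were called higher (5.92% of all genes), and 4 had no overlap (9.31%). On day 28 Cd74 and Ciita of the 7 were called (0.97% of all genes), and 2 genes, H2-Ab1 and Cd74, had no overlap (4.88%). When day 0 replicate 1 was left out, 5 of the 7 were called on day 28. The 0.97% is of the fit of all libraries, which called 100 genes higher and 38 lower. Fits without single libraries called 63 to 480 genes in either direction. The share in the fit without day 0 replicate 1 is not given here, so the 5 of 7 cannot be set against it. The median log2 difference from day 0 was 3.08, 2.81 and 1.38 on these days (3.07, 2.75 and 1.38 with Ciita at its bound), against 0.05, 0.07 and -0.01 over all genes. The comparisons share the same day 0 libraries. Leaving out day 0 replicate 1, singled out by its high class II levels, had to raise the day 7 differences. They became 5.62 for H2-Aa, 5.72 for H2-Ab1, 3.94 for H2-Eb1, 5.38 for H2-DMa and 4.94 for Cd74.

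**Figure D1:**
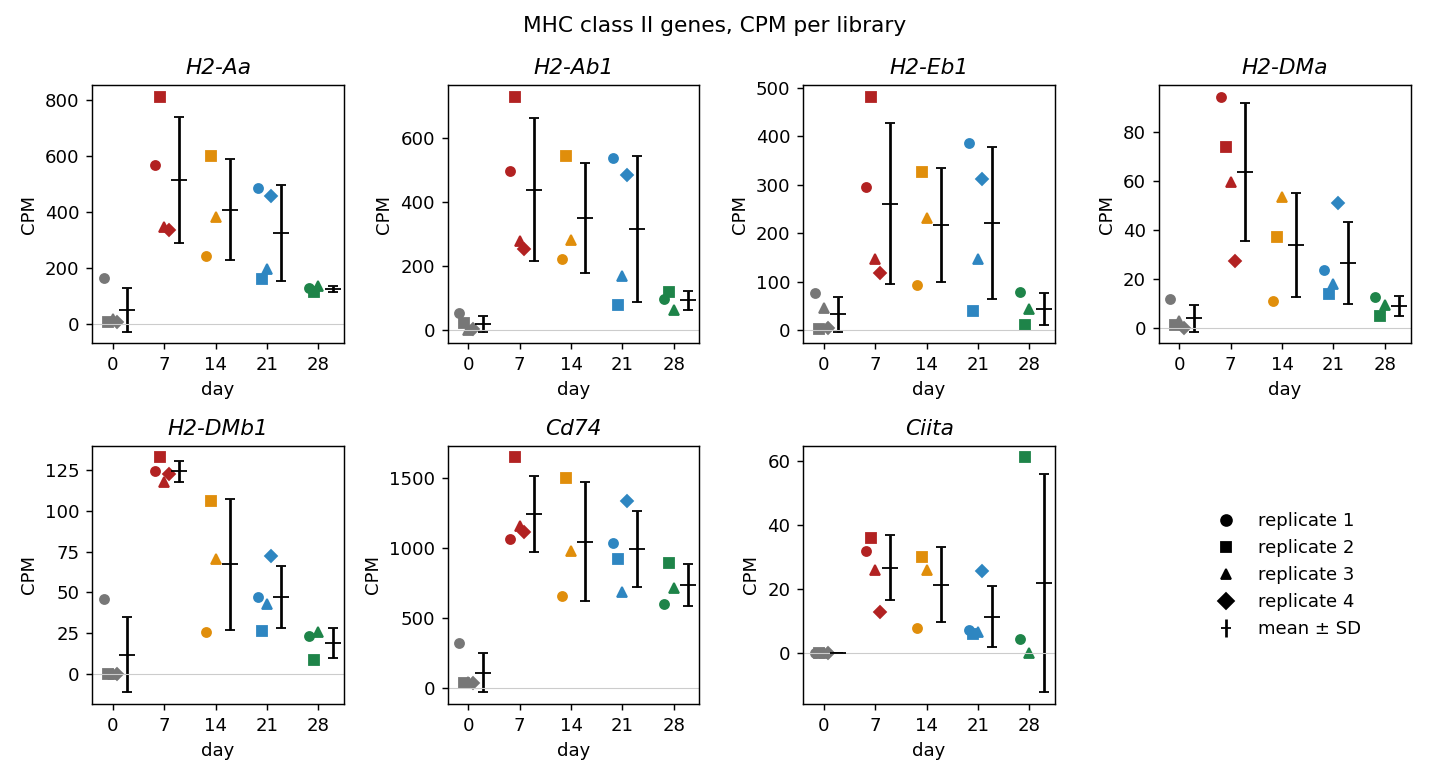
CPM of the 7 MHC class II genes in each of 18 libraries (vertical axes, linear, with a scale of their own per gene) by day (horizontal axes), with the replicate number given by the symbol and the mean ± SD by the bars. Levels peaked on average on day 7 for all 7 genes, day 0 replicate 1 lay above the other pre-injury libraries for 6 of them, and Ciita on day 28 rested on replicate 2.

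Among the peptide-binding chains, H2-Aa, the alpha chain of the I-A molecule, was at 165, 7.17, 17.9 and 6.56 CPM in day 0 replicates 1 to 4. It reached 566, 812, 347 and 336 CPM on day 7. Values were 242, 602 and 381 CPM on day 14, 487, 161, 196 and 456 CPM on day 21 and 128, 114 and 136 CPM on day 28. Day 7 and day 14 did not overlap day 0, whereas day 21 replicate 2 and all day 28 libraries lay below day 0 replicate 1. From a mean of 49.2 ± 77.5 CPM (SD, n = 4), H2-Aa rose to 515 ± 225 (SD, n = 4) on day 7, a log2 difference of 3.41 (SE 0.65, adjusted p = 0.000469 from edgeR). It was higher by 3.07 on day 14 (adjusted p = 0.00535) and by 2.75 on day 21 (adjusted p = 0.00756). On day 28 the difference of 1.38 missed the threshold (adjusted p = 0.339), and passed it without day 0 replicate 1 (adjusted p = 0.000883), when the day 0 mean was 10.5 ± 6.37 CPM (SD, n = 3).

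H2-Ab1, the beta chain that pairs with H2-Aa, was at 53.6, 20.3, 0 and 2.62 CPM on day 0. Its day 7 values were 495, 728, 277 and 252 CPM. There followed 221, 544 and 281 CPM on day 14, 536, 76.7, 168 and 484 CPM on day 21 and 97.7, 119 and 60.7 CPM on day 28. All 14 injured libraries lay above all 4 pre-injury ones. The log2 difference from day 0 (mean 19.1 ± 24.7 CPM, SD, n = 4) was 4.52 on day 7 (SE 0.70, adjusted p = 4.47e-05 from edgeR). It remained at 4.18 after 14 days (adjusted p = 0.000575) and 4.05 after 21 (adjusted p = 0.000535). The day 28 difference of 2.28 had an adjusted p of 0.123, which became 0.0306 without day 0 replicate 1.

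H2-Eb1 encodes the beta chain of the I-E molecule. In C57BL/6 mice the alpha chain gene H2-Ea is known to be silent, and H2-Ea had 0 counts in all 18 libraries, for which up to 3 counts per library remain possible. H2-Eb1 was at 75.9, 2.39, 46.2 and 3.94 CPM on day 0 and at 296, 482, 148 and 118 CPM on day 7. Later values were 92.8, 326 and 232 CPM on day 14, 386, 38.3, 146 and 312 CPM on day 21 and 77.6, 9.92 and 43.1 CPM on day 28. The pre-injury libraries fell into 2 high and 2 low ones, and the day 28 libraries lay within their range or just above it. From 32.1 ± 35.6 CPM (SD, n = 4), H2-Eb1 rose by 3.05 on the log2 scale on day 7 (SE 0.75, adjusted p = 0.00424 from edgeR), then by 2.78 and 2.81 for days 14 and 21 (adjusted p = 0.0281 and 0.0171). On day 28 its difference was 0.49 (adjusted p = 0.8287). Its day 14 call was lost with DESeq2 (adjusted p = 0.0658). Calls were also lost when some single libraries were left out, with adjusted p-values up to 0.164 on day 14 (without day 14 replicate 2) and 0.0716 on day 21 (without day 21 replicate 1).

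Of the peptide-loading subunits, H2-DMa, the alpha subunit, was at 11.9, 1.20, 2.98 and 0 CPM before injury. On day 7 it was at 94.4, 73.7, 59.8 and 27.4 CPM. Its values were 11.2, 37.1 and 53.5 CPM on day 14, 23.7, 14.1, 18.1 and 51.2 CPM on day 21 and 12.9, 4.96 and 9.59 CPM on day 28. Day 14 replicate 1, with 11.2 CPM, lay just under day 0 replicate 1, and day 28 overlapped day 0. Against 4.02 ± 5.40 CPM on day 0 (SD, n = 4), H2-DMa rose by 3.98 on the log2 scale on day 7 (SE 0.74, adjusted p = 0.000357 from edgeR), then by 3.08 and 2.71 for days 14 and 21 (adjusted p = 0.0143 and 0.0227). The day 28 difference was 1.22 (adjusted p = 0.521). Leaving out single libraries brought the adjusted p to as much as 0.110 on day 14 (without day 14 replicate 3) and 0.0958 on day 21 (without day 21 replicate 4).

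H2-DMb1, the beta subunit, was at 46.2 CPM in day 0 replicate 1 and had no count in the other 3 day 0 libraries. On day 7 its 4 values were close together, at 125, 133, 118 and 123 CPM. It was at 25.6, 106 and 70.5 CPM on day 14, 47.3, 26.2, 42.8 and 72.1 CPM on day 21 and 23.0, 8.27 and 25.6 CPM on day 28. Days 14, 21 and 28 overlapped day 0 only through replicate 1, the single pre-injury library with counts. H2-DMb1 rose by 3.47 on the log2 scale on day 7 (SE 0.80, adjusted p = 0.00254 from edgeR). Its differences of 2.58, 2.06 and 0.77 for days 14, 21 and 28 missed the threshold (adjusted p = 0.0664, 0.114 and 0.740). Without day 0 replicate 1, which left no pre-injury count, all 3 were called (edgeR adjusted p = 8.11e-06, 2.13e-05 and 0.00279). This library was singled out by its high class II levels. These passes, like those of H2-Aa and H2-Ab1 on day 28, are therefore not separate support. H2-DMb1 on days 14 and 21 also passed with no filter on low counts and with the label number block, and on day 14 without day 14 replicate 1 (adjusted p = 0.0339). With no filter the day 14 difference was hardly changed, at 2.61, while the edgeR adjusted p went from 0.0664 to 6.18e-06.

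Cd74, the invariant chain, was at 323, 38.3, 47.7 and 35.4 CPM on day 0. It was at 1065, 1649.6, 1160.2 and 1114 CPM on day 7. Later libraries held 659, 1500.0 and 982 CPM (day 14), 1037, 924, 686 and 1336 CPM (day 21) and 602, 896 and 717 CPM (day 28). Every injured library, day 28 included, lay above every pre-injury library. From 111 ± 141 CPM (SD, n = 4), Cd74 rose by 3.50 on the log2 scale on day 7 (SE 0.51, adjusted p = 1.83e-05 from edgeR). Later differences were 3.24, 3.17 and 2.74 for days 14, 21 and 28 (adjusted p = 0.000255, 0.000219 and 0.00721). Cd74 alone of the 7 genes kept its calls against day 0 on all 4 days whichever single library was left out, with adjusted p-values of at most 0.0331.

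Ciita, the transactivator known to activate transcription of the other 6 genes, had no count in any of the 4 pre-injury libraries. A floor of 3 counts per library corresponds to 4.12 CPM on average. On day 7 it was at 32.1, 35.9, 25.9 and 12.9 CPM, at least 6.49-fold above day 0 (edgeR adjusted p = 0.00142). On days 14 and 21 it was at 8.0, 30.0 and 26.1 CPM and at 7.10, 6.05, 6.58 and 25.6 CPM. Each of these 11 libraries had counts, and the bounds were at least 5.19-fold higher on day 14 (adjusted p = 0.00786) and at least 2.75-fold higher on day 21 (adjusted p = 0.0198, or 0.0632 without day 21 replicate 4). Day 28 was uneven, at 4.31, 61.2 and 0 CPM. The day 28 call (mean at least 5.31-fold higher, edgeR adjusted p = 0.0326) rested on replicate 2, with 37 of the 40 counts. It was lost without that library (adjusted p = 0.325). Replicates 1 and 3 had 3 and 0 counts, at or under the floor, so the bound holds for the mean only. The call was also lost without day 0 replicate 2, 3 or 4 (adjusted p = 0.0701, 0.0708 and 0.0729). The same held with the replicate block (adjusted p = 0.0792) and with the label number block (limma adjusted p = 0.197).

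**Figure D2:**
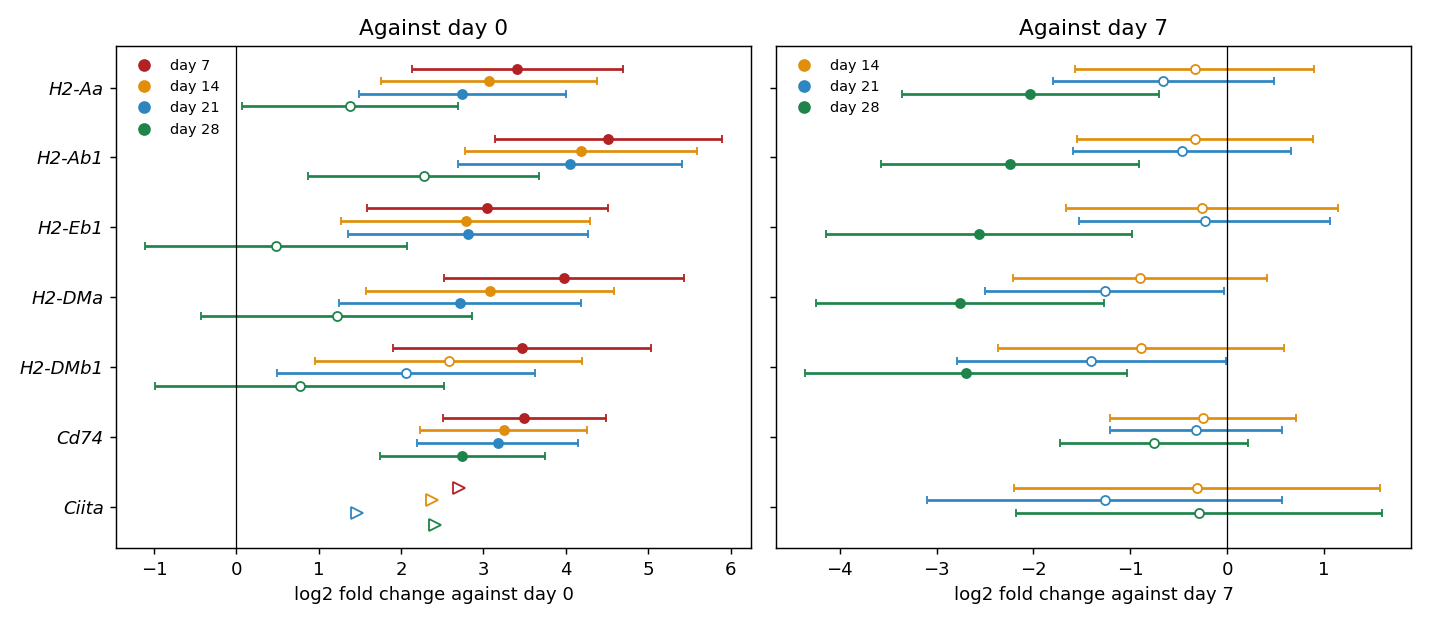
Log2 fold change of each gene on the horizontal axes against day 0 (left) and against day 7 (right), as edgeR estimates with 95% intervals coloured by day, filled where the adjusted p was under 0.05. Triangles give lower bounds for Ciita, which had no count on day 0, and only the day 28 estimates against day 7 are filled on the right, for 5 of 7 genes.

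On day 28, 5 of the 7 genes were called lower than on day 7 (8.05% of all genes), and Cd74 and Ciita missed the threshold. Whether Cd74 changed by less than the others is taken up with the ratios to Cd74. Every day 28 library lay below every day 7 library for 6 of 7 genes, all but Ciita (14.4% of all genes). The median difference was -2.24 on the log2 scale, against -0.07 over all genes. H2-Aa fell by 2.03 (SE 0.68, adjusted p = 0.0440 from edgeR) to a mean of 126 CPM (n = 3) and H2-Ab1 fell by 2.24 (SE 0.68, adjusted p = 0.0271) to 92.5 ± 29.5 CPM. For H2-Eb1 the difference was -2.56 (SE 0.81, adjusted p = 0.0335). H2-DMa fell by 2.76 (SE 0.76, adjusted p = 0.0153) and H2-DMb1 fell by 2.70 (SE 0.85, adjusted p = 0.0325), from 124 ± 6.39 CPM (SD, n = 4) to 18.9 ± 9.33 CPM (SD, n = 3). Cd74 had a difference of -0.76 (SE 0.50, adjusted p = 0.347) with a 95% interval from -1.73 to 0.22. The Ciita difference was -0.30, with a wide interval from -2.19 to 1.59.

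These calls were sensitive to single libraries, to the filter and to the tool. With no filter on low counts Cd74 passed as the sixth gene (adjusted p = 0.0457). Without day 7 replicate 1, or without day 28 replicate 2, none of the 7 passed in edgeR, with adjusted p-values of 0.0568 to 0.137 for the 5 genes, and 1 to 3 passed without day 7 replicate 2 or 3 or day 28 replicate 1 or 3. H2-Aa lost its call in 10 of the 18 fits without a single library. Among these were the fits without day 14 replicate 3 and without day 21 replicate 1, 3 or 4 (edgeR adjusted p = 0.0501 to 0.0585). DESeq2 called 1, H2-DMa, and gave adjusted p-values of 0.0515 to 0.0951 for the other 4. The direction of the 5 was lower in each of these fits.

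Between the other post-injury days no difference in the 7 genes passed. From day 7 to day 14 edgeR called 0 of 7 (1.66% of all genes in either direction), and 0 had an unadjusted p under 0.05. From day 7 to day 21 it called 0 of 7 (7.26% of all genes), again with 0 at an unadjusted p under 0.05. H2-DMb1, whose day 14 and day 21 libraries all lay below its day 7 libraries, differed by -0.89 on day 14 (interval -2.37 to 0.59) and -1.41 on day 21 (interval -2.79 to -0.02). From day 14 to day 21 0 of 7 passed (0% of all genes), with 0 at an unadjusted p under 0.05. From day 21 to day 28 0 of 7 passed (0.679% of all genes), though 3 (H2-Aa, H2-Ab1 and H2-Eb1) had an unadjusted p under 0.05, with differences of -1.37, -1.77 and -2.33. DESeq2 likewise called 0 of 7 in these 4 comparisons. With no filter on low counts H2-Aa, H2-Ab1 and H2-Eb1 passed between day 21 and day 28. H2-DMb1 passed between day 7 and day 21 with no filter, with the label number block, with only these 2 days and without day 0 replicate 1 (adjusted p = 0.0182, 0.0263, 0.00874 and 0.0362). Intervals are normal approximations from the SE and can exclude 0 where the test does not pass.

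Macrophage markers were higher on day 7 and lower again on day 28, as were most class II genes. Of 16 macrophage genes tested, 15 were called higher than day 0 on days 7, 14 and 21 and 5 on day 28, and 13 were called lower on day 28 than on day 7. Their median log2 difference was 4.50 on day 7 and 1.70 on day 28 against day 0 (4.45 and 1.65 with 3 genes at their bounds), and -2.31 between day 28 and day 7. The days between differed more: against day 7 the macrophage median was -0.97 on day 14 and -1.05 on day 21. For the class II genes it was -0.33 and -0.66. All 16 had counts in every library of days 7, 14 and 21, while Adgre1, Fcgr1 and Mertk each lacked them in 1 of 3 day 28 libraries and Mpeg1 had none on day 0.

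To ask whether class II genes changed by more or less than these markers, the counts were refitted with the summed macrophage counts of each library as its size. Lyz2 alone gave a large part of that sum, on average 416, 279, 377 and 349 of 1000 macrophage counts on days 7, 14, 21 and 28. On this scale 0 of 7 genes were called between day 14 and day 7 (38.1% of all genes were called higher) and 0 of 7 between day 21 and day 7 (20.8%), with 1 and 0 genes at an unadjusted p under 0.05 in edgeR. The gene on day 14 was Cd74, at 454, 457 and 329 counts per 1000 macrophage counts, above all 4 day 7 libraries. Its difference was 1.11 (interval 0.15 to 2.07, adjusted p = 0.0662, or 0.0322 without day 0 replicate 1). On day 28, 2 of 7 were called higher than on day 7, Cd74 and Ciita, in a setting where 77.1% of all genes were. The median over all genes was 2.44 on the log2 scale there.

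Per 1000 macrophage counts, Cd74 was at 196, 207, 191 and 173 counts in the day 7 libraries and at 599, 876 and 531 counts in the day 28 libraries. The days did not overlap, and the difference was 1.80 on the log2 scale (SE 0.49, adjusted p = 0.00166 from edgeR), at most 0.0134 over the alternatives. H2-Aa was at 104, 102, 57.1 and 52.1 counts per 1000 on day 7 and at 127, 111 and 100.5 counts on day 28, which overlapped. The chain and H2-DM genes differed by between -0.29 (H2-DMa) and 0.52 (H2-Aa) on this scale, and none was called. H2-Eb1, at 0.01, had an interval from -1.43 to 1.46, so differences of such a size either way were not detectable. Ciita was called (2.32, SE 1.08, adjusted p = 0.0485), but its day 28 values per 1000 macrophage counts were 4.29, 59.8 and 0, and without replicate 2 its difference became -0.997.

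**Figure D3:**
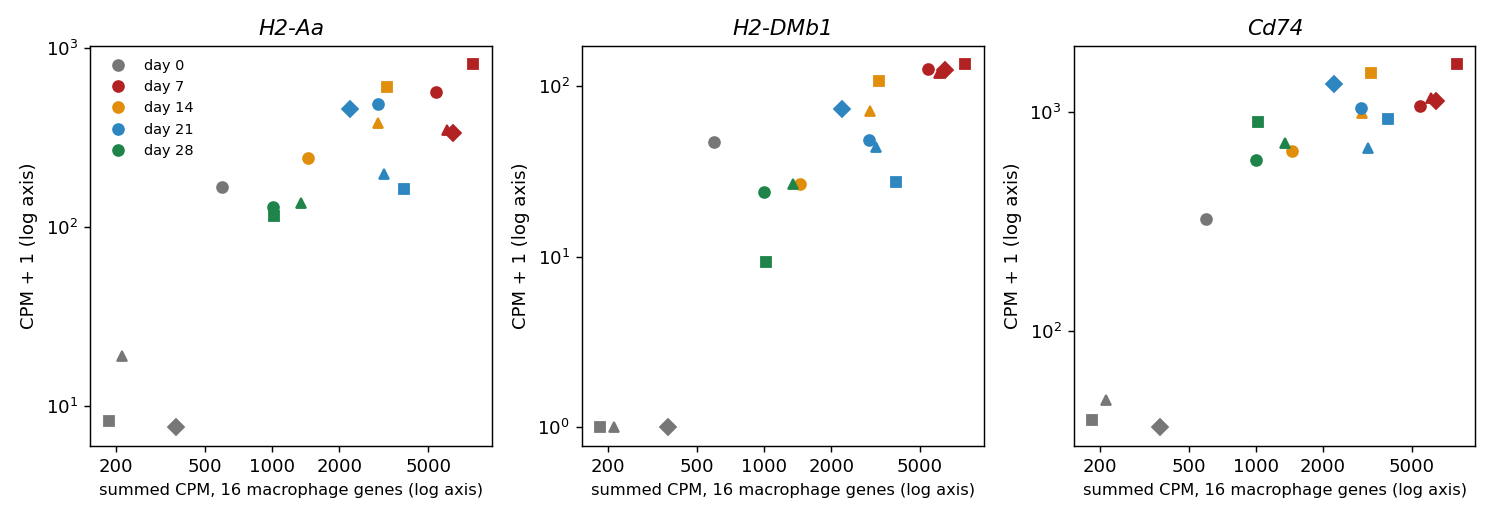
CPM + 1 of H2-Aa, H2-DMb1 and Cd74 (vertical axes, log) against the summed CPM of 16 macrophage genes (horizontal axes, log) in each of 18 libraries, coloured by day with symbols by replicate as in the plot of levels by day. Day 28 libraries lay between 1005 and 1352 CPM of macrophage genes, with Cd74 at 602 to 896 CPM, while H2-Aa at 114 to 136 CPM lay below day 0 replicate 1.

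The ratio to Cd74 within a library sets each gene against Cd74 instead of macrophage markers, and was added after the data had been seen. From day 7 to day 28 the log2 ratio to Cd74 (pseudocount of 2) changed by -1.16 for H2-Aa, -1.37 for H2-Ab1, -1.88 for H2-Eb1, -1.64 for H2-DMa and -1.89 for H2-DMb1. Two-sided exact permutation tests gave p = 0.0286 for H2-Aa, H2-Ab1 and H2-DMb1, the smallest that 4 against 3 libraries can give, 0.0571 for H2-DMa and 0.0857 for H2-Eb1. After adjustment over the 25 such comparisons computed, the values were 0.179 for these 3 genes and 0.227 for the others, and none passed. With so few libraries, a pass would have required most of the 25 comparisons to reach their smallest possible p. The adjusted values therefore cannot decide whether Cd74 changed by less than the others.

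Within the libraries the 7 genes went up and down with each other. Over 18 libraries Pearson's r between pairs of log2 CPM ran from 0.57 (H2-Eb1 with Ciita) to 0.96 (H2-Aa with H2-DMb1). In the 14 injured libraries alone it was 0.96 for the partner chains H2-Aa and H2-Ab1 and 0.92 for the H2-DM subunits H2-DMa and H2-DMb1. Cd74 followed H2-Aa with 0.82 and H2-Eb1 with 0.59 in these libraries, and Ciita gave 0.21 with H2-Eb1 and 0.67 with Cd74. These values are descriptions: the points share the day and the macrophage content of a library, and those of Ciita rest on few counts.

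The 5 genes whose log2 CPM was most like the mean of the 7 over 18 libraries were Cd52 (r = 0.97), Pld4 (0.96), Csf1r (0.96), C1qa (0.95) and Cyth4 (0.94). Cd52 encodes a small leukocyte surface glycoprotein, Csf1r the receptor for colony-stimulating factor 1 on macrophages and C1qa a chain of complement C1q. Without day 0, over 14 libraries, the values were 0.92, 0.88, 0.88, 0.77 and 0.89. Mean Cd52 went from 6.03 CPM on day 0 to 340 CPM on day 7. It was at 222 CPM after 14 days, 114 CPM after 21 and 30.0 CPM after 28.

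Other class II genes were sparse. Of 5 such genes only H2-DMb2, the second H2-DM beta chain gene, was tested. It had 0.37 CPM on day 0, rose at least 4.88-fold by day 7 (edgeR adjusted p = 0.00170) and at least 4.86-fold higher on day 21 (adjusted p = 0.00480), and was at least 4.28-fold lower on day 28 than on day 7 (adjusted p = 0.0114). H2-Ob, a subunit of the H2-O inhibitor of peptide loading, had 0, 15, 10, 13 and 3 counts in all over the libraries of days 0, 7, 14, 21 and 28, and its partner H2-Oa had 0, 8, 5, 10 and 2.

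None of the other factors of class II promoters was called. Of 7 genes for RFX, NF-Y and CREB subunits 6 were tested, and 0 were called against day 0 on any day or between day 28 and day 7 in edgeR, with 0 at an unadjusted p under 0.05. Their median difference was -0.05 on day 7. Those with the smallest p on day 7 were Creb1, with 44.8 CPM on day 0 and 22.5 CPM on day 7 (adjusted p = 0.194), and Nfyb, an NF-Y subunit, with 14.1 and 30.4 CPM (adjusted p = 0.233). Rfx5, the gene that was not tested, had 10 counts in all on day 0 and 20 on day 7.

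Of the interferon-gamma pathway, 8 of 9 genes were tested. On day 7, 4 were called higher, on days 14 and 21 2 each, and on day 28 0, with 1 at an unadjusted p under 0.05 in edgeR. The median difference was 1.21 on day 7 and -0.64 between day 28 and day 7, when 3 were called lower. Irf1, an interferon-induced transcription factor, rose by 1.55 on day 7 (adjusted p = 0.0444), and Ifngr1, a receptor chain, by 1.03 (adjusted p = 0.00516). Socs3, a feedback inhibitor, was at least 12.2-fold higher on day 7 (adjusted p = 0.00229). Ifng itself had 11 counts in all, 3 on day 7, 7 on day 14 and 1 on day 21.

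A further list held proteases, a reductase and other genes that prepare antigen and invariant chain. Of 10 listed genes 9 were in the table and tested. On day 7, 6 were called higher and 1 lower, with a median of 1.60. Day 14 had 2 higher, day 21 had 4 and day 28 had 0, with 1 at an unadjusted p under 0.05 in edgeR. Ctss, cathepsin S, went from 6.89 to 533 CPM on day 7 (log2 difference 6.25, SE 0.62, adjusted p = 1.3e-07). From day 7 to day 28 Ctss fell by 3.87 (adjusted p = 0.000114). Lgmn, Ctsb and Ifi30, a thiol reductase, rose on day 7 by 1.84, 1.60 and 2.20. Cst3, the cathepsin inhibitor cystatin C, was the 1 gene that fell, by 0.98 (adjusted p = 0.00762), and is named for that after its value was seen. Against day 7, Cst3 was higher on day 28 by 1.53 (adjusted p = 0.000550), while 7 of the 9 were lower.

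Co-stimulatory ligands were mostly under the filter, with 4 of 7 tested. On day 7, 3 were called higher. Cd40 was at least 4.65-fold higher (adjusted p = 0.00603) and Cd274, which encodes PD-L1, at least 3.30-fold higher (adjusted p = 0.00731). Cd86 rose by 3.07 on the log2 scale (adjusted p = 0.0169). On the side of the T cell, Lag3, a receptor of class II, was at 6.76 CPM on day 0 and 9.84 CPM on day 7 (adjusted p = 0.815). Cd4, with 0 to 7 counts in all per day, was not tested.

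Among class I genes and the neighbours within the class II region, 6 of 9 tested were called higher on day 7, with a median of 0.88 against 3.50 for the 7 class II genes, and 2, 2 and 0 on days 14, 21 and 28 (0 at an unadjusted p under 0.05 on day 28 in edgeR). H2-K1, a class I heavy chain, rose by 1.33 on day 7 (adjusted p = 0.000954), and H2-D1 by 0.88 (adjusted p = 0.0115). Tap1, a subunit of the peptide transporter, rose by 2.66 (adjusted p = 0.00165) and Psmb8, an immunoproteasome subunit, by 2.53 (adjusted p = 0.00115). Both lie between H2-DMb1 and H2-Ab1. Tap2, within the same stretch of chromosome 17 (0.65, adjusted p = 0.380), and Brd2, which overlaps its edge (0.15, adjusted p = 0.744), were not called.

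**Figure D4:**
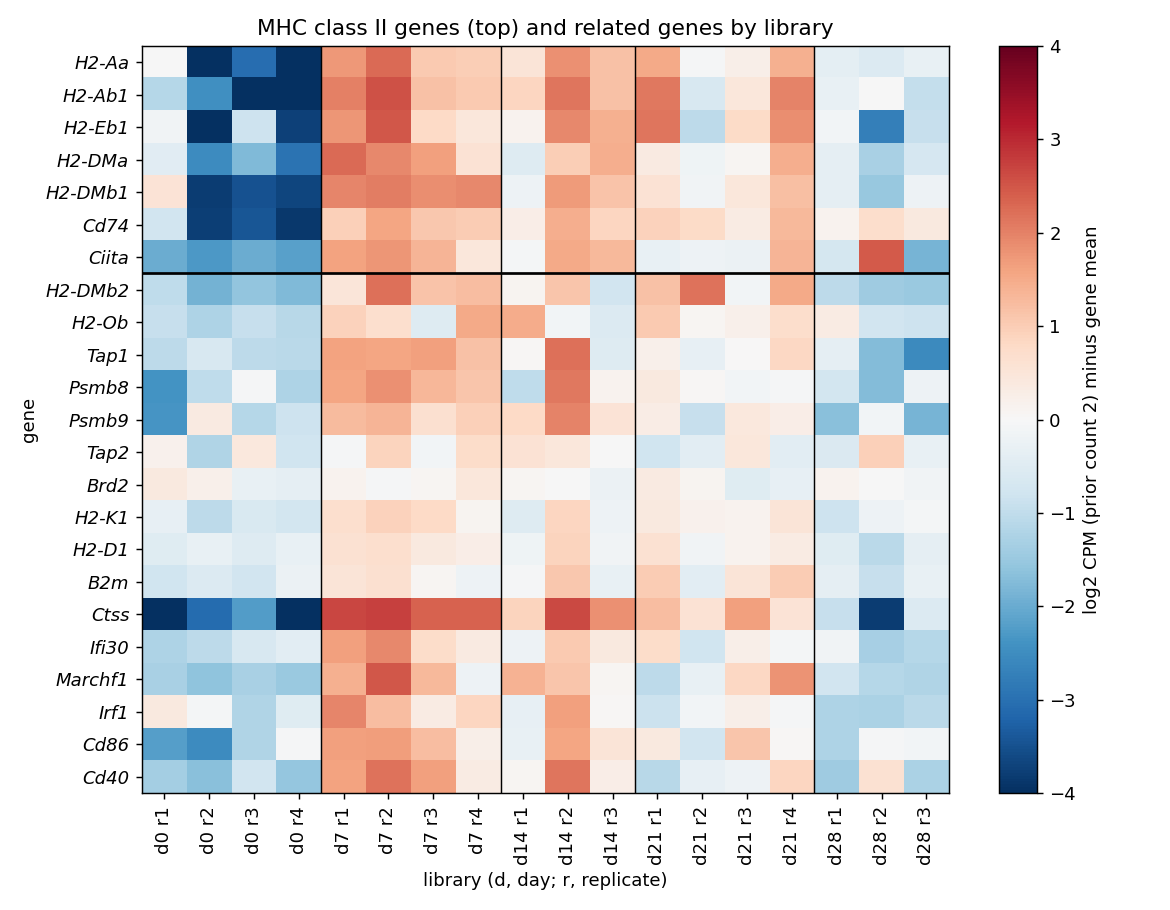
Log2 CPM (prior count of 2) minus the gene's mean over 18 libraries for the 7 MHC class II genes (above the line) and 16 related genes, in columns by day and replicate, with red above and blue below the mean and the colours ending at 4 either way. Day 7 columns are red for all 7 genes, day 0 replicate 1 is paler than the other day 0 columns for most of them, and Brd2 is close to its mean throughout.

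Markers of other antigen-presenting cells were counted for the same libraries. Of 12 dendritic cell genes 5 were tested and 4 were called higher on day 7, among them Itgax (at least 9.40-fold, adjusted p = 0.000143) and Cd209a (at least 3.75-fold, adjusted p = 0.00236). Irf8 rose by 4.20 on the log2 scale (adjusted p = 0.00303) and Clec10a was at least 4.96-fold higher (adjusted p = 0.0238). Clec9a, a defining marker of cross-presenting dendritic cells, had no count in any library, and Flt3 had none on day 0 and 13 on day 7. Sums of the 12 genes were 15.5 to 24.9 CPM on day 0 and 118 to 261 CPM on day 7. They were 65.6 to 187 CPM (day 14), 62.6 to 137 CPM (day 21) and 28.8 to 43.1 CPM (day 28).

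B cell and T cell genes were counted in the same way. Of 8 B cell genes 2 were tested. Igkc was called higher on day 7 (at least 1.57-fold, adjusted p = 0.0336) and day 21 (at least 11.6-fold, adjusted p = 0.00244), while Ighm was at 5.54 CPM on day 0 and 22.1 CPM on day 7 (adjusted p = 0.158). Sums of the 8 genes were 2.98 to 14.4 CPM on day 0 and 17.8 to 73.7 CPM on day 7. They were 22.9 to 40.4 CPM (day 14), 24.7 to 163 CPM (day 21) and 23.2 to 53.1 CPM (day 28). None of 10 T cell genes was tested, and their sums lay between 0 and 52.6 CPM on day 0 and between 29.9 and 69.4 CPM on day 7. What macrophages, dendritic cells and B cells each contributed to the class II levels was not tested.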

How the data were processed

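RNA of laser-dissected arteries was read by MACE in 18 libraries. The authors removed PCR duplicates with molecular identifiers, cropped low-quality reads and quantified the rest against the mm39 transcriptome with Salmon 1.9.0. Annotation release and strand setting are not given in the sources used here. All tests used the estimated counts that the authors deposited, which are whole numbers and not normalised. The authors also deposited a normalised signal made with DESeq2 1.36.0, used only to compare levels. It held a further factor for H2-Eb1 (0.604 to 1.03) and H2-DMa (0.580 to 1.08), while the other 5 genes lay within 1% of their library's factor.

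The day in the labels defined the groups. edgeR 4.0.16 in R 4.3.3 was used (filterByExpr by day, TMM, quasi-likelihood test, 1 fit with day as the only term), with p-values adjusted by Benjamini-Hochberg across 10312 genes and called below 0.05. The steps were run on simulated counts. For the fits relative to macrophages these had less spread than the data, so this was a check of the code and not of the results. Log2 CPM used a prior count of 2, and folds against a group with at most 3 counts in each library are bounds against 3 counts per library. Fits relative to macrophages used the summed counts of 16 marker genes as library size. Positions and promoters come from GENCODE (GRCm39), with the canonical transcript's start.

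All 7 members are named. Related genes came from lists, with at most 4 named per list, those with the smallest p between day 7 and day 0, and the exceptions given in the text. Members and lists were chosen with earlier results of these data known. Alternatives were DESeq2 1.42.0, RLE size factors, no filter, only the 2 days compared, a block for the replicate number, a block for the number in the description label (limma 3.58.1), the marker list without Lyz2, and each library left out in turn. Ratios to Cd74 were added after the data had been seen.

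Replicate numbers did not pair the libraries: residuals of the 33 pairs with a common number had a median correlation of -0.01 (-0.14 to 0.21). In 3 cases a day 0 and a day 21 library carry the same number in the description label, and their residuals correlated by -0.01 to 0.05. No pair of columns held identical values. Some genes of these lists are not reported here.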

Additional observations from a re-analysis of the deposited data

Results flagged for a closer look

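Of 20 groups of 4 libraries, for the 7 class II genes on days 0, 7 and 21 where values differed, 5 held 1 library far from the other 3 by Dixon's criterion. Chance alone flags about 1 in 20 groups, and the 7 genes are not independent of each other.

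In day 0 replicate 1, H2-Aa stood at 165 CPM with the next library at 17.9, H2-DMb1 at 46.2 with the next at 0, and Cd74 at 323 with the next at 47.7. All 3 are values of the same library. H2-Ab1, H2-Eb1 and H2-DMa were also highest in it, at 7.01, 4.34 and 8.56 times the mean of the other 3 pre-injury libraries, but not beyond the criterion. In this library macrophage markers were 2.32 times and fibroblast markers 1.52 times the mean of the others.

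In day 7 replicate 2, Cd74 was at 1649.6 CPM with the next library at 1160.2. In day 21 replicate 4, Ciita was at 25.6 CPM with the next at 7.10. The Ciita value stands for 11 counts.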

How the results depend on the processing

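For single genes, 1501 of 1617 alternative values kept their direction and their side of the threshold, 65 lost the call, 21 gained it and 30 changed sign. Among called results 1 changed sign: Ciita relative to macrophage markers on day 28 against day 7, at -0.997 without day 28 replicate 2 and up to 2.92 without replicate 3. The other sign changes were of differences that missed the threshold before and after. For the members called, day 7 against day 0 gave 7 with any library left out and 6 to 7 otherwise, the 6 being from a fit of only the 2 days, in which 6 members were tested. Day 14 and day 21 against day 0 each gave 4 to 7. On day 28 against day 0 (2 called), no filter gave 4, and the replicate block, the label number block and a fit of only the 2 days gave 1 each, with 1 to 5 on leaving out single libraries. The 5 were without day 0 replicate 1. On day 21 against day 7 (0 called), no filter, the label number block and only the 2 days gave 1 each, and single libraries 0 to 1, each time H2-DMb1, lower. On day 28 against day 7 (5 called), DESeq2 gave 1, no filter 6 (with Cd74) and single libraries 0 to 5. On day 28 against day 21 (0 called), no filter gave 3. Passes with no filter came with smaller adjusted p-values at like differences. For H2-Ab1 on day 28 against day 0, edgeR gave 3.38e-08 at a difference of 2.27 with no filter, against 0.123 at 2.28 with it. Relative to macrophage markers, day 28 against day 7 (2 called) gave 1 member without Lyz2, 1 with the replicate block and 1 to 2 on leaving out libraries, and day 14 against day 7 (0 called) gave 0 to 1. The replicate block changed no other count. Except where fewer genes or libraries entered the fit, the cause was not tested.

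Uncalled differences that changed sign had these ranges on leaving out single libraries. From day 7 to day 14 they were -0.79 to 0.046 for H2-Ab1, -0.66 to 0.23 for H2-Eb1, -0.59 to 0.021 for Cd74 and -0.61 to 0.10 for Ciita. From day 14 to day 21 they were -0.61 to 0.064 for H2-Aa, -0.53 to 0.34 for H2-Ab1, -0.40 to 0.44 for H2-Eb1, -0.85 to 0.14 for H2-DMa and -0.33 to 0.28 for Cd74. H2-Eb1 ran from -0.66 to 0.26 (day 21 against day 7) and -0.23 to 1.39 (day 28 against day 0). Ciita ran from -3.48 to 0.33 (day 28 against day 7), -2.21 to 1.72 (day 28 against day 21) and, relative to macrophage markers, -1.02 to 0.27 (day 21 against day 7). H2-Eb1 on day 21 against day 14 was at -0.077 with the replicate block and -0.16 with the label number block, and Ciita on day 28 against day 21 at -0.64 with the latter.

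Over all genes, counts called moved by more than 1.5 times with single libraries left out. They ran from 233 to 762 (641 in the fit of all libraries) on day 14 and 63 to 480 (138) on day 28 against day 0, 26 to 318 (171) on day 14 against day 7 and 15 to 410 (70) on day 28 against day 21. For the last 3, those with no filter were 363, 392 and 373, with DESeq2 366, 309 and 329, and with only the 2 days 32 and 83 for the first pair of these. Day 28 against day 7 gave 922 in place of 1490 with only the 2 days. The label number block gave 52 and the replicate block 72 for day 28 against day 0. Day 21 against day 14 (0) gave 43 with DESeq2 and 23 with no filter. In the fits of members relative to macrophage markers, calls for day 14 against day 7 ran from 342 to 4985 (3938), with 2002 genes without Lyz2 and 2408 with the replicate block, and for day 21 against day 7 from 879 to 2979 (2158).

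Depth limits H2-DMa, H2-DMb1 and Ciita most, at 18, 37 and 40 counts over the day 28 libraries. No mean level moved by more than 1 SD when the deposited normalised values were used.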
